A study of Arabidopsis thaliana with 14 samples.

Results

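The 49 WRKY genes described here are members of a family of plant transcription factors, and they were chosen by name: each is a locus on a fixed list, and its probes were found on the array by that locus. The list was chosen with earlier results of these data known, so its counts are descriptive. All 49 were on the array, with 3 to 5 probes each and 157 probes in all, and all 49 were among the 22810 genes measured. The reference gene table lists 72 loci under a WRKY name. The other 23 are also on the array but are not among the 49 and were not analysed here.

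WRKY proteins carry a conserved zinc-binding domain that contacts W-box elements in promoters. They are sorted into groups I, II and III by their domains, and group II is divided further into IIa to IIe. Many are known for immunity and leaf senescence, and they act downstream of salicylate, a defence hormone, and of MAP kinases. WRKY46, WRKY54 and WRKY70, of group III, are known as partners of BES1, the transcription factor of brassinosteroid (BR) signalling, and as repressors of drought-responsive genes. Placement in groups follows general knowledge of the family, since no protein sequence was used here.

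The mutant plants were quad, an Arabidopsis thaliana mutant in BRI1, BRL1 and BRL3, which encode BR receptors, and in BAK1, which encodes a co-receptor (alleles bri1-301, brl1-1, brl3-1 and bak1-3 by the study's methods), and they were set against Col-0 WT. Plants were harvested at day 0, and at days 2, 4 and 6 of drought (watering stopped) or of normal watering. These 7 conditions had 2 biological replicates each, and quad and WT of a replicate shared 1 of the 14 arrays with exchanged dyes in replicate 2. By the labels the material was the whole mature plant, and the methods speak both of entire plants and of pooled rosettes. Whole-plant RNA cannot tell fewer cells of a type from less RNA per cell.

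Ratios are log2 quad/WT, so that a positive value means a higher level in quad. A gene was called when its Benjamini-Hochberg adjusted p in limma was under 0.05 and its log2 change was beyond 1.5 in either direction, as in the methods of the study. Changes that met the adjusted p alone are described as having passed the adjusted p, and errors are moderated SE with n = 2 arrays per condition.

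Across the series, the transcripts of BRL1, BRL3 and BAK1 were lower in quad on 14 of 14 arrays, while BRI1 was below 0 on 1 array (bri1-301 is known as a missense allele). Replicate ratios of the members correlated with r between 0.45 at day 6 drought and 0.97 at day 2 water, across 49 genes that are not independent. Root markers stood apart at day 2 drought, where 12 of 14 passed the adjusted p as lower in quad, with a median of -1.42. They were higher in quad, by medians of 0.59 to 1.03, at day 4 water and in both conditions of day 6. The array of day 4 drought replicate 1 carried 24 spots with a local background over 10 times its median, none of them a member's own spot, although the correction fitted on all spots reaches every gene of that array. WRKY31, WRKY55 and WRKY72 were not well above background in at least 1 genotype and condition, and none of them was called in any comparison.

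The WRKY genes differed most between quad and WT at day 2 under normal watering. There, 8 of 49 members were called higher in quad, against a background of 1.58% of all genes called higher, and 0 were called lower. They were WRKY75, WRKY51, WRKY40, WRKY46, WRKY50, WRKY30, WRKY60 and WRKY38. With the adjusted p alone 27 of 49 were higher, against 13.4% of all genes. The median of the 49 ratios was 0.60, whereas that of all genes was 0.01, and 46 of 49 ratios were above 0. By group the medians were 2.01 for IIa, 1.17 for III, 0.84 for IIc, 0.40 for IIb, 0.34 for IId, 0.29 for IIe and 0.17 for I, and the differences between groups were not tested.

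**Figure D1:**
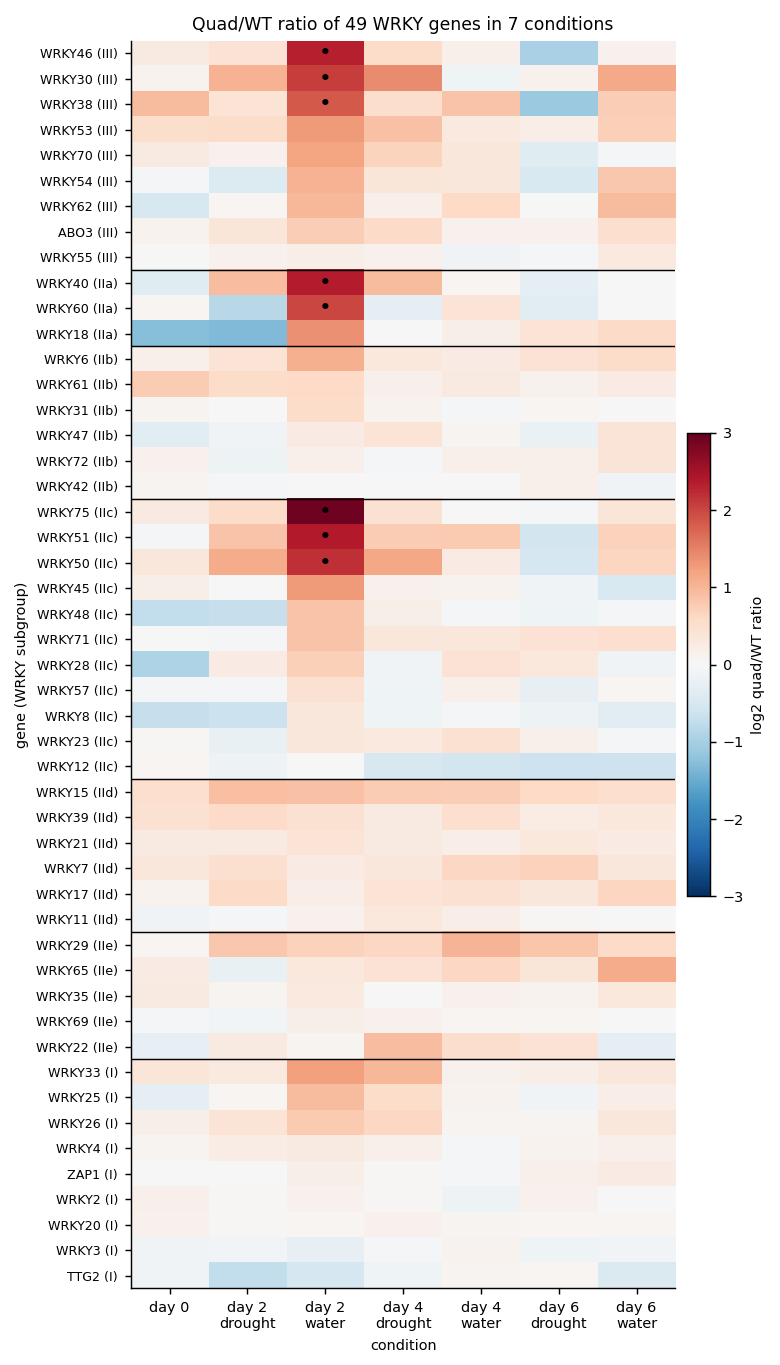
Colours give the log2 quad/WT ratio (mean of 2 arrays) of 49 WRKY genes (rows, by subgroup) in 7 conditions (columns), and dots mark the calls. The 8 dots all stand in the column of day 2 water, in groups IIa, IIc and III.

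Group III was examined first, since it holds the BES1 partners. WRKY46 (AT2G46400), which also acts in osmotic stress and stomatal movement, had log2 ratios of 2.32 and 2.37 on the arrays of day 2 water. Its change was 2.34 ± 0.14 (adjusted p = 3.3e-07), or 5.07-fold. In the other 6 conditions its array ratios lay between -0.99 and 0.82, so that none reached those of day 2 water. At day 6 drought the gene was lower in quad on both arrays, at -0.99 and -0.94, and passed the adjusted p (8.7e-04).

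WRKY70 (AT3G56400), a node between salicylate and jasmonate signalling, had ratios of 1.30 and 1.05 at day 2 water. It rose by 1.17 ± 0.09 (adjusted p = 2.0e-06) without reaching the log2 limit. WRKY54 (AT2G40750), its closest relative, had 1.16 and 0.92, with a change of 1.04 ± 0.12 (adjusted p = 4.1e-05). Both were thus about 1 log2 unit higher in quad, less than WRKY46 and on both arrays. At day 6 WRKY54 was lower in quad under drought (-0.47 ± 0.12, adjusted p = 0.021) and higher under water (0.81 ± 0.12, adjusted p = 6.5e-04).

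Averaged over the 7 conditions the trio of BES1 partners was higher in quad by 0.42 (WRKY46), 0.31 (WRKY70) and 0.23 (WRKY54), with adjusted p of 7.2e-05, 2.1e-05 and 0.0012. These means fall short of the log2 limit, as do those of all members. They include day 2 water, where each gene of the trio had its highest ratio. In the other conditions the ratios lay on both sides of 0. They ranged from -0.97 to 0.56 (WRKY46), -0.36 to 0.66 (WRKY70) and -0.47 to 0.81 (WRKY54, with -0.40 at day 2 drought). WRKY55, the neighbour of WRKY54 in the reference gene table, was dim. Its ratios ranged from -0.11 to 0.29 over the conditions, and no change passed the adjusted p.

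WRKY30 (AT5G24110), a gene induced by reactive oxygen species, had ratios of 2.17 and 2.00 at day 2 water and a change of 2.09 ± 0.26 (adjusted p = 9.6e-05). The WT signal was low there, and in replicate 2 it was not well above background. Scanner-processed signals raised the change to 3.80 and an offset of 0 raised it to 3.14. WRKY30 was also higher in quad at day 2 drought (1.05 ± 0.26) and at day 6 water (1.14 ± 0.26), both past the adjusted p. At day 4 drought the arrays did not match: the ratio was 0.58 in replicate 1 and 2.26 in replicate 2. Replicate 1 is the array with the bright local backgrounds, and setting those 24 backgrounds to the array median, an alternative chosen after seeing the data, gave a mean ratio of 2.17 in place of 1.42, which was then called.

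WRKY38 (AT5G22570), which like WRKY62 is known to restrain basal defence, had 1.86 and 1.81 at day 2 water, with a change of 1.83 ± 0.13 (adjusted p = 1.2e-06). Already at day 0 its ratios were 1.03 and 0.88 (0.96 ± 0.13, adjusted p = 4.0e-04). At day 6 drought it stood on the other side of 0, at -1.10 and -1.12 (adjusted p = 1.8e-04), the lowest member in that condition. WRKY62 was higher in quad at day 2 water with an adjusted p of 1.8e-05, and WRKY53, which promotes senescence, was higher by 1.27. ABO3 (WRKY63), named for its part in abscisic acid responses, was higher in quad by 0.73 there.

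Group IIa consists of WRKY18, WRKY40 and WRKY60, which bind one another and act in abscisic acid and pathogen responses. WRKY40 (AT1G80840) had ratios of 2.43 and 2.27 at day 2 water, with a change of 2.35 ± 0.13 (adjusted p = 1.9e-07). At day 2 drought its ratios were 1.01 and 0.85, and at day 4 drought 0.91 and 0.96, all on the quad side. In the remaining 4 conditions no change of WRKY40 passed the adjusted p.

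WRKY60 (AT2G25000) had 2.13 and 1.90 at day 2 water (2.01 ± 0.11, adjusted p = 1.5e-07), but -0.77 and -0.91 at day 2 drought (-0.84 ± 0.11, adjusted p = 1.7e-04). WRKY18 (AT4G31800) showed the same reversal, with 1.34 and 1.39 at day 2 water and -1.42 and -1.24 at day 2 drought. The WRKY18 changes of 1.37 and -1.33 had SE of 0.14 and passed the adjusted p (2.3e-05 and 4.5e-05), short of the log2 limit. WRKY18 was lower in quad at day 0 too, at -1.38 and -1.16, which made it the lowest member both there and at day 2 drought.

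Group IIc contained the largest change by the brightest probe of each gene. WRKY75 (AT5G13080), known for phosphate starvation, root hair formation and leaf senescence, had ratios of 2.98 and 2.85 at day 2 water. Its change of 2.91 ± 0.26 (adjusted p = 7.4e-06) is 7.54-fold, while its other probes gave 2.12 and 1.68. In no other condition did WRKY75 pass the adjusted p, and at day 6 drought its arrays lay on opposite sides of 0, at 0.79 and -0.92. WRKY45, its near relative in phosphate uptake, was higher in quad by 1.29 at day 2 water.

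WRKY50 (AT5G26170) and WRKY51 (AT5G64810) are known for the repression of jasmonate signalling through salicylate. WRKY50 had 2.19 and 2.17 at day 2 water (2.18 ± 0.17, adjusted p = 2.2e-06) and also passed the adjusted p at day 2 drought, with 1.12 and 1.09, where it was the highest member. WRKY51 had 2.49 and 2.27 at day 2 water (2.38 ± 0.17, adjusted p = 1.1e-06) and 0.97 and 0.75 at day 2 drought. Both were also higher in quad at day 4 drought and day 6 water, and both had negative ratios on both arrays at day 6 drought without passing the adjusted p. At day 4 water WRKY51 passed it (0.79) and WRKY50 did not (0.24). Like WRKY30, WRKY50 differed between the arrays of day 4 drought (0.65 in replicate 1 and 1.67 in replicate 2), and its mean of 1.16 became 1.68, and called, with the bright backgrounds replaced.

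WRKY48 (AT5G49520), a stress-induced repressor of basal defence, had 0.81 and 0.90 at day 2 water (0.85 ± 0.07, adjusted p = 4.6e-06). It was lower in quad at day 0 (-0.73 and -0.77) and at day 2 drought (-0.73 and -0.68). WRKY8, another gene of the group, was also lower in quad at day 0, by 0.69, and at day 2 drought, by 0.66. WRKY12, which restrains secondary wall formation in the pith, had the lowest mean over the 7 conditions, at -0.34 (adjusted p = 0.0091), without passing the adjusted p in any single condition, and its mean was the lowest of the members at day 4 drought, day 4 water and day 6 water. Its arrays differed, with -0.21 and -0.90 at day 4 water and -0.23 and -1.02 at day 6 water, and in replicate 1 of day 6 water TTG2 was lower (-0.47).

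**Figure D2:**
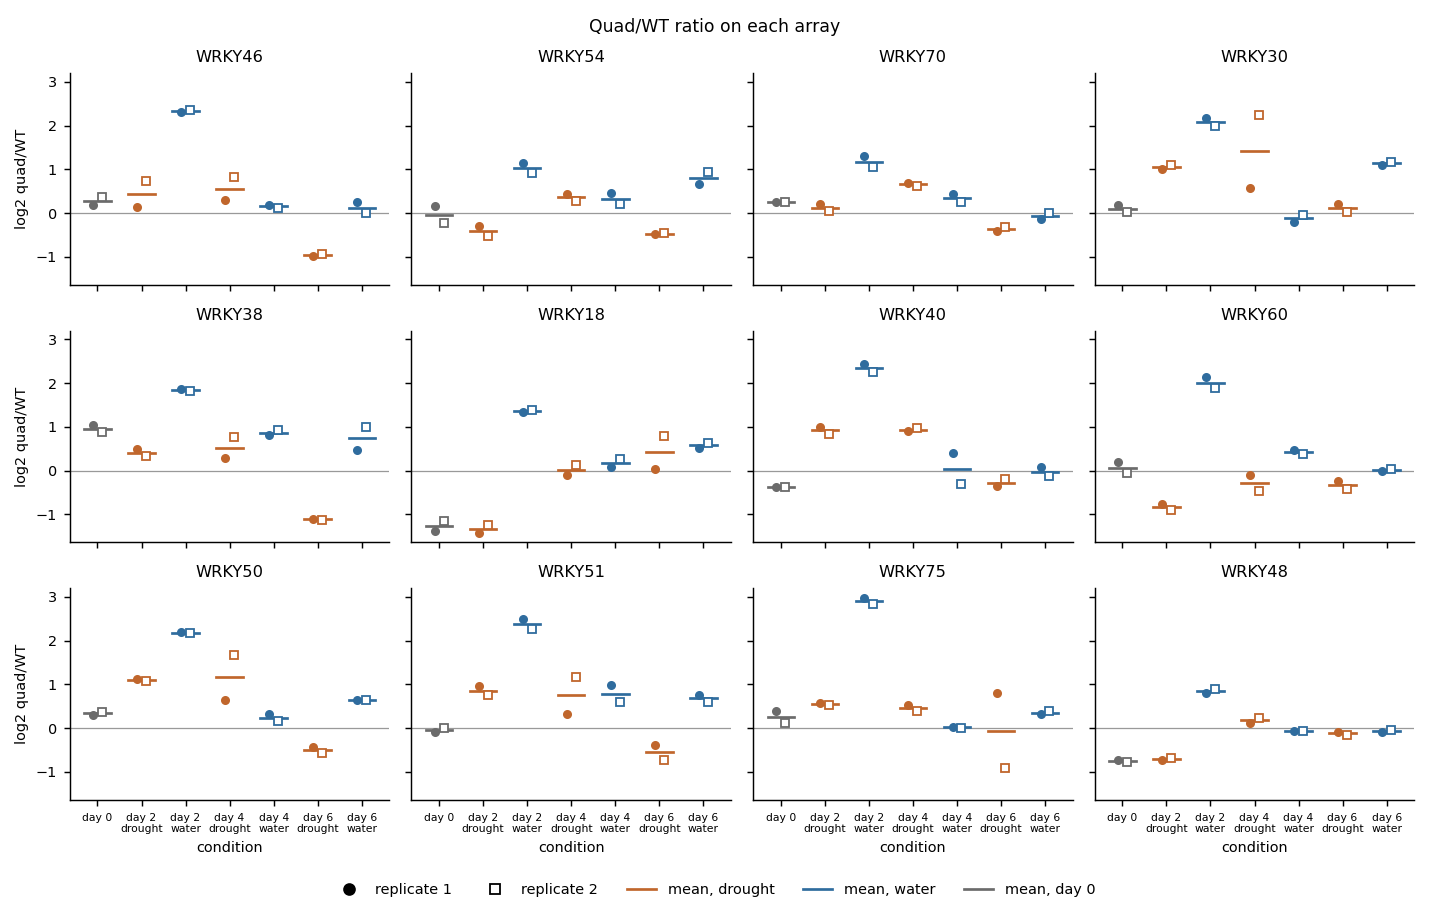
The log2 quad/WT ratio (y axis) of 12 WRKY genes in 7 conditions (x axis), with a circle for replicate 1, a square for replicate 2 and a line for their mean. The mean is highest at day 2 water in all 12 panels, while in WRKY30 replicate 2 of day 4 drought reached 2.26.

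In groups I, IIb, IId and IIe no member was called in any condition. Group IIb had 3 of 6 members higher at day 2 water with the adjusted p alone, namely WRKY6 (1.08), which acts in senescence and phosphate transport, WRKY61 (0.60) and WRKY31, which was not well above background in WT there. In group IId, whose members bind calmodulin, WRKY15, which acts in cell expansion and oxidative stress, had mean ratios of 0.49 to 0.89 in the 7 conditions and passed the adjusted p in 5 of them. In group IIe, WRKY29, which acts in the response to bacterial flagellin, had 0.58 to 1.02 in the 6 conditions after day 0 and passed the adjusted p in all 6. Its value at day 0 was 0.06. Group I held WRKY33, the activator of camalexin synthesis, with 1.24 at day 2 water and 0.99 at day 4 drought, both past the adjusted p. TTG2 (WRKY44), a regulator of trichomes and seed coat, was lower in quad at day 2 drought (-0.73) and day 2 water (-0.49), and it was the lowest member at day 2 water.

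Outside day 2 water no member was called in any condition. Backgrounds of calls in either direction were 0.737% at day 0, 0.894% and 1.04% under day 2 drought and day 4 water, 0.272% and 0.443% under drought of days 4 and 6, and 0.469% under day 6 water, so that 0 of 49 does not stand apart from them. With the adjusted p alone, day 2 drought had 13 members higher and 6 lower, against 5.74% and 11.9% of all genes. At day 4 drought 15 were higher and 0 lower (3.31% of all genes higher), and at day 4 water 13 were higher and 0 lower (5.12% higher). At day 6 water 16 were higher and 1 lower (7.78% higher). At day 6 drought, where the replicates of the members correlated least, 4 were higher and 4 lower (4.94% and 7.08% of all genes), so that these counts lie near the background.

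Over the mean of the 7 conditions 33 of 49 members were higher and 4 lower with the adjusted p alone, against 17.5% and 19.4% of all genes. None was called, as were 0.0745% of all genes. The median of the members was 0.23 and that of all genes 0.00. The mean includes day 2 water, where the median of the members was 0.60. WRKY30 had the highest mean, 0.83, followed by WRKY50 with 0.74. In group III, 8 of 9 members were higher in the mean over conditions. WRKY55, the remaining one, was not well above background in most conditions.

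The genes that work with WRKY proteins were then examined at day 2 water, from lists drawn up from general knowledge. Earlier results of these data were known when the lists were chosen, so their counts are descriptive. Of 14 genes measured for salicylate synthesis and signalling, 13 passed the adjusted p as higher in quad, 0 as lower and 8 were called, with a median of 1.61. The 4 largest changes among those called were of PR5 (4.08), BGL2 (3.94) and PR1 (2.97), which encode pathogenesis-related proteins, and of PBS3 (2.14), an enzyme of salicylate synthesis. Of 9 genes known as targets of WRKY factors, 7 were higher, 0 lower and 5 called, with a median of 1.97. ABI5 (0.17) and JAZ8 (0.10) did not pass the adjusted p. The list was not divided into targets that WRKY factors activate and targets that they repress.

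Among the targets, PAD3 and CYP71A13, enzymes of camalexin synthesis, were higher in quad by 3.13 and 2.95. The flagellin-induced kinase gene FRK1 was higher by 2.11. SAG12, a senescence marker, was not well above background on either WT array at day 2 water. It was at least 68.5-fold higher in quad (adjusted p = 2.0e-10), where the bound sets WT to the lowest signal that counted as well above background. SAG12 was also called higher in quad at day 0, day 4 water and day 6 water. At day 0 it was likewise not well above background on either WT array. Its bound there was 2.63-fold, short of the log2 limit. SAG12 was called lower at day 2 drought (-2.16, adjusted p = 6.6e-07) and at day 6 drought (-3.70, adjusted p = 9.0e-08). Of 10 partners of WRKY proteins, among them MAP kinases, their kinases and BR signalling factors, 5 passed the adjusted p as higher, 0 as lower and 0 were called, with a median of 0.37. BES1, BZR1 and BIN2, the BR signalling genes of that list, had ratios of 0.03, 0.08 and -0.08 at day 2 water. In other conditions BES1 passed the adjusted p at day 0 (0.52) and at day 6 water (-0.38). BZR1 passed it at day 2 drought (0.67), and BIN2 in no condition.

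**Figure D3:**
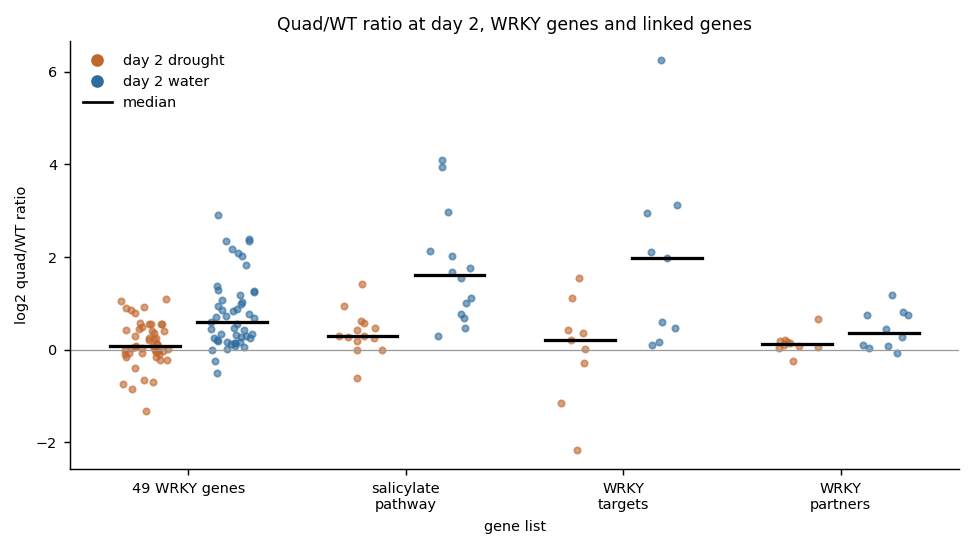
Each point is the log2 quad/WT ratio (y axis) of a gene at day 2 under drought (left, orange) or water (right, blue), for 49 WRKY genes, 14 salicylate genes, 9 targets and 10 partners (x axis). Medians (black lines) under drought and water were 0.08 and 0.60 for the WRKY genes, 0.29 and 1.61 for salicylate, 0.21 and 1.97 for targets and 0.13 and 0.37 for partners.

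At day 2 water 8 of 12 leaf markers passed the adjusted p as lower in quad, with a median of -0.54, and their mean log2 signal was 13.17 to 13.28 in quad and 13.72 to 13.77 in WT. At day 0 and in both conditions of day 6, 6 of 12 leaf markers were lower, with medians of -0.44, -0.44 (drought) and -0.37 (water). At day 2 drought 4 were lower, at day 4 drought 2 and at day 4 water 0, with medians of -0.22, -0.23 and 0.11. Of the 14 root markers 5 were higher in quad at day 2 water, with a median of 0.12 and a mean log2 signal of 7.80 to 7.92 in quad and 7.26 to 7.27 in WT. Of 8 flower markers 0 were higher and 1 lower. The part of these in the WRKY ratios was not tested.

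The effect of drought on the quad/WT ratio was measured as the difference of ratios, drought minus water, on each day. At day 2 all calls were negative: 6 of 49 members were called lower, against 2.54% of all genes, and 22 were lower with the adjusted p alone, against 15.1%. None passed as higher. The median difference was -0.47, whereas that of all genes was -0.03. WRKY60 (-2.86 ± 0.15), WRKY18 (-2.70 ± 0.20), WRKY75 (-2.37 ± 0.37), WRKY46 (-1.90 ± 0.20), WRKY48 (-1.55 ± 0.10) and WRKY51 (-1.52 ± 0.24) were called, with adjusted p between 1.6e-07 and 6.8e-04. WRKY54 followed with -1.44 and WRKY70 with -1.05, both past the adjusted p.

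By groups, 3 of 3 members of IIa, 8 of 11 of IIc and 6 of 9 of III had passed the adjusted p as lower at day 2, but 0 of 6 of IId. WRKY48 and WRKY51 lay close to the log2 limit: averaging all probes ended both calls, with -1.27 for WRKY48, and WRKY51 came to -1.41 or -1.42 without day 2 water replicate 1 or day 2 drought replicate 2, so that its call was lost. Root markers moved in the same direction in this comparison, with 14 of 14 lower and a median of -1.33, and their part in the WRKY differences was not tested.

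At day 4 WRKY30 was called higher (1.54 ± 0.36, adjusted p = 0.034), against 0.623% of all genes. That call depended on single arrays: leaving out any of 11 of the 14 arrays ended it, with the adjusted p at 0.052 to 0.23, except that without day 4 drought replicate 2 the change itself dropped to 0.70 (adjusted p = 0.039). At day 6 WRKY38 was called lower (-1.85 ± 0.18, adjusted p = 2.7e-04), against 0.333% of all genes. WRKY54 (-1.27), WRKY51 (-1.23), WRKY50 (-1.14), WRKY46 (-1.09), WRKY62 (-0.97) and WRKY65 (-0.73) were lower with the adjusted p alone, and WRKY22 (0.74) was higher. The share of all genes passing the adjusted p alone was not computed for this difference, so these members cannot be set against it. Another probe of WRKY65 gave -0.36.

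These differences of ratios were traced to each genotype through the single channels, which are log2 signals and were compared between arrays within a gene only. Here 22641 genes were tested. In quad at day 2 drought lowered 12 of 49 members with the adjusted p alone, against 5.98% of all genes, and 1 was called lower, against 0.473%. In WT, drought raised 13 of 49 with the adjusted p alone, against 10.4%, and 2 were called higher, against 0.883%. No member passed as higher in quad or as lower in WT. Root markers moved with the rise in WT, where 13 of 14 were higher under drought and 6 were called, with a median of 1.35, while in quad 0 were higher and 4 lower, with a median of -0.11. Their part in the WRKY changes was not tested. The 2 genotypes share each array, so their values stand side by side and the test of their difference is that of the ratios given above.

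WRKY60 was the call in quad. Its log2 signals in quad were 9.02 and 8.84 under drought and 10.70 and 10.55 under water, a change of -1.69 ± 0.12 (adjusted p = 4.6e-09). In WT they were 9.79 and 9.75 under drought and 8.57 and 8.65 under water, a change of 1.16 ± 0.12 (adjusted p = 4.8e-07). The pairs of arrays did not overlap in either genotype, and the order was opposite.

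WRKY18 was called in WT, with 13.31 and 13.10 under drought and 11.16 and 11.11 under water (2.07 ± 0.14, adjusted p = 1.4e-09). In quad it had 11.89 and 11.86 under drought and 12.50 and 12.51 under water (-0.63 ± 0.14, adjusted p = 0.0061). Here too drought and water stood in opposite order in the genotypes.

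WRKY40 was the other call in WT, with 10.65 and 10.80 under drought and 9.10 and 9.07 under water (1.64 ± 0.16, adjusted p = 1.7e-07). In quad it was high in both, at 11.66 and 11.64 under drought and 11.53 and 11.33 under water, and did not pass the adjusted p (0.22 ± 0.16, adjusted p = 0.56). The lowest of the 4 pairs was therefore that of watered WT.

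WRKY75 had 9.88 and 9.88 under drought and 11.02 and 10.93 under water in quad (-1.10 ± 0.32, adjusted p = 0.041). In WT it had 9.31 and 9.36 under drought and 8.04 and 8.09 under water (1.27 ± 0.32, adjusted p = 0.010). WRKY46 followed the same course, with quad at 9.76 and 10.02 under drought and 10.78 and 10.81 under water, and WT at 9.61 and 9.29 under drought and 8.46 and 8.44 under water. Its change was -0.91 ± 0.17 in quad (adjusted p = 0.0017) and a 1.99-fold rise in WT (adjusted p = 3.7e-04), and its drought levels in the genotypes lay within 1 log2 unit of each other.

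WRKY48 changed by -0.75 in quad and 0.81 in WT, and WRKY51 by -0.90 and 0.62, all past the adjusted p. WRKY54 changed by -0.81 in quad and 0.63 in WT, also past the adjusted p on both sides. In WRKY70 the change in quad passed (-0.77 ± 0.12, adjusted p = 2.7e-04) and that in WT did not (0.28 ± 0.12, adjusted p = 0.16). WRKY38 was of the same kind, with -1.13 ± 0.14 in quad (adjusted p = 1.1e-05) and 0.30 ± 0.14 in WT (adjusted p = 0.18).

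**Figure D4:**
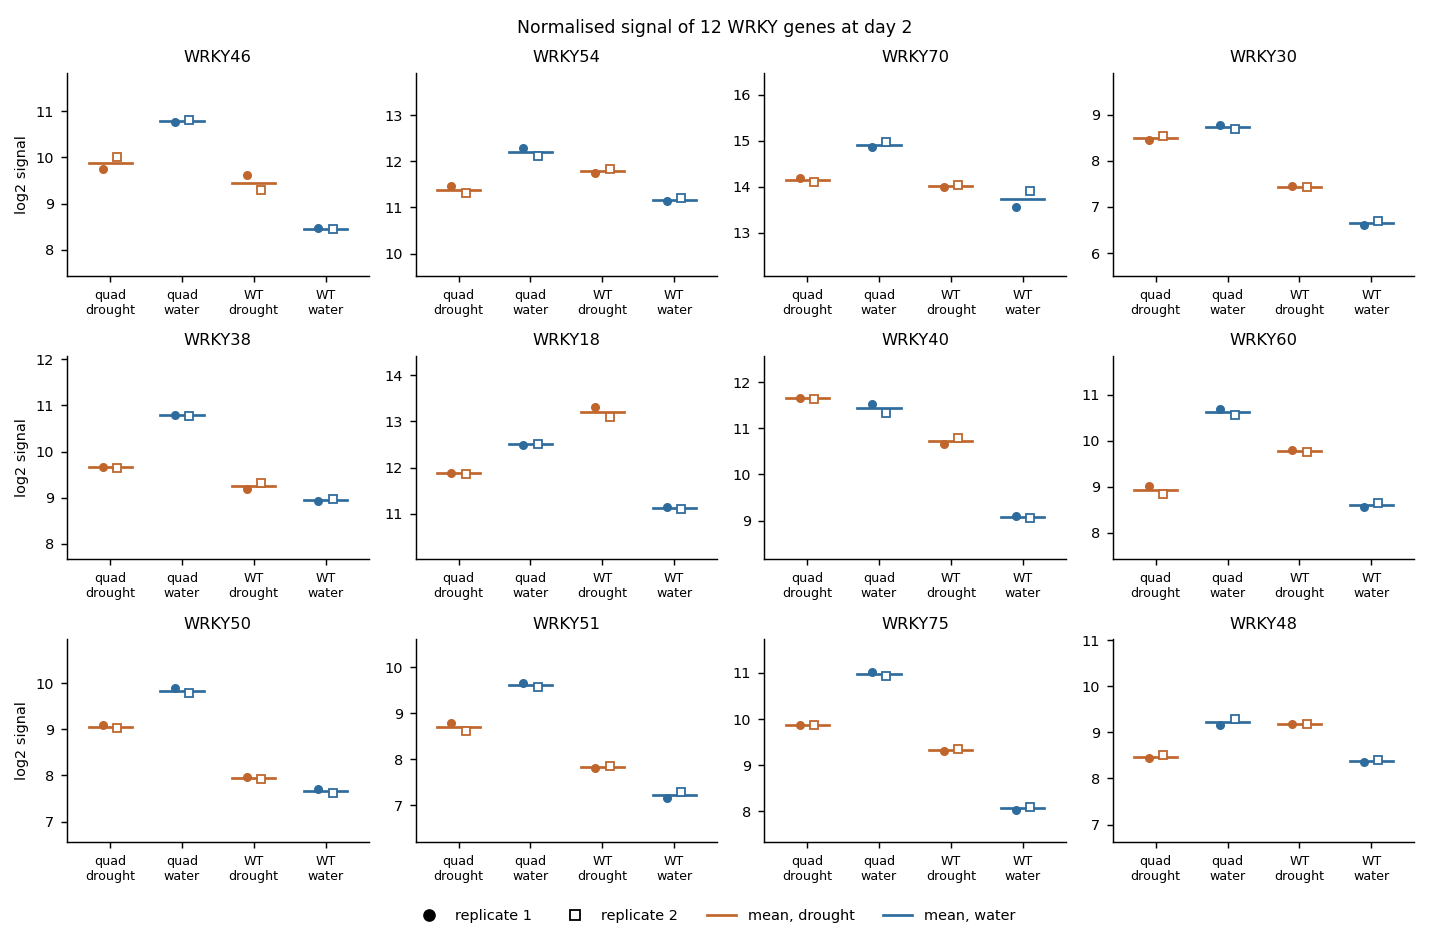
Normalised log2 signal (y axis) of 12 WRKY genes at day 2 in quad drought, quad water, WT drought and WT water (x axis), with a circle for replicate 1, a square for replicate 2 and a line for the mean. Watered quad has the highest mean in 10 panels, WRKY18 being highest in droughted WT and WRKY40 in droughted quad, and watered WT has the lowest in all 12.

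On day 4 drought changed few members. No member was called in quad or in WT, where 0.331% and 0.225% of all genes were called in either direction. In quad 3 members were higher and 1 lower with the adjusted p alone, against 3.14% and 1.98% of all genes. In WT 0 were higher and 1, WRKY40, was lower by 0.63, against 1.56% of all genes lower.

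By day 6 the balance in WT had turned. In quad 20 of 49 members were lower under drought with the adjusted p alone, against 10.6% of all genes. There 2 were called lower, against 0.879%, and 1 passed the adjusted p as higher, for which no share of all genes was computed. In WT 14 were lower and 4 higher with the adjusted p alone, against 7.75% and 7.44%, and 1 was called lower, against 0.256%. Medians were -0.20 in quad and -0.12 in WT. Of 14 root markers, 7 were lower under drought with the adjusted p alone in quad and 2 in WT. Of 8 flower markers, 4 were lower in quad and 5 in WT. The part of these markers in the day 6 changes was not tested.

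WRKY18 was called on this day in both genotypes. In quad its log2 signals were 11.09 and 11.57 under drought and 13.17 and 13.36 under water (-1.93 ± 0.14, adjusted p = 5.1e-09). In WT they were 11.05 and 10.78 under drought and 12.64 and 12.72 under water (-1.76 ± 0.14, adjusted p = 2.5e-08). The drought minus water difference of its ratio was -0.17 ± 0.20 (adjusted p = 0.76), in contrast to -2.70 on day 2.

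WRKY50 was the other call in quad, with 8.18 and 8.26 under drought and 9.87 and 10.04 under water (-1.74 ± 0.19, adjusted p = 1.2e-06). In WT it had 8.61 and 8.83 under drought and 9.23 and 9.40 under water (-0.59 ± 0.19, adjusted p = 0.041). WRKY48 fell by 1.11 in quad and by 1.06 in WT. WRKY54 was the member with the highest change in WT, 1.16 ± 0.17 (adjusted p = 5.0e-05), with 11.94 and 11.66 under drought and 10.82 and 10.44 under water, whereas in quad the change was -0.11 ± 0.17 (adjusted p = 0.72).

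WRKY38 also parted between the genotypes on day 6, with -1.38 ± 0.14 in quad (adjusted p = 2.9e-07) and 0.47 ± 0.14 in WT (adjusted p = 0.022). Its log2 signals were 8.16 and 8.36 in droughted quad and 9.60 and 9.69 in watered quad. WT had 9.26 and 9.49 under drought and 9.12 and 8.68 under water. WRKY75 in droughted WT was the least certain level of the 12 genes, since its arrays gave 7.46 and 9.42.

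**Figure D5:**
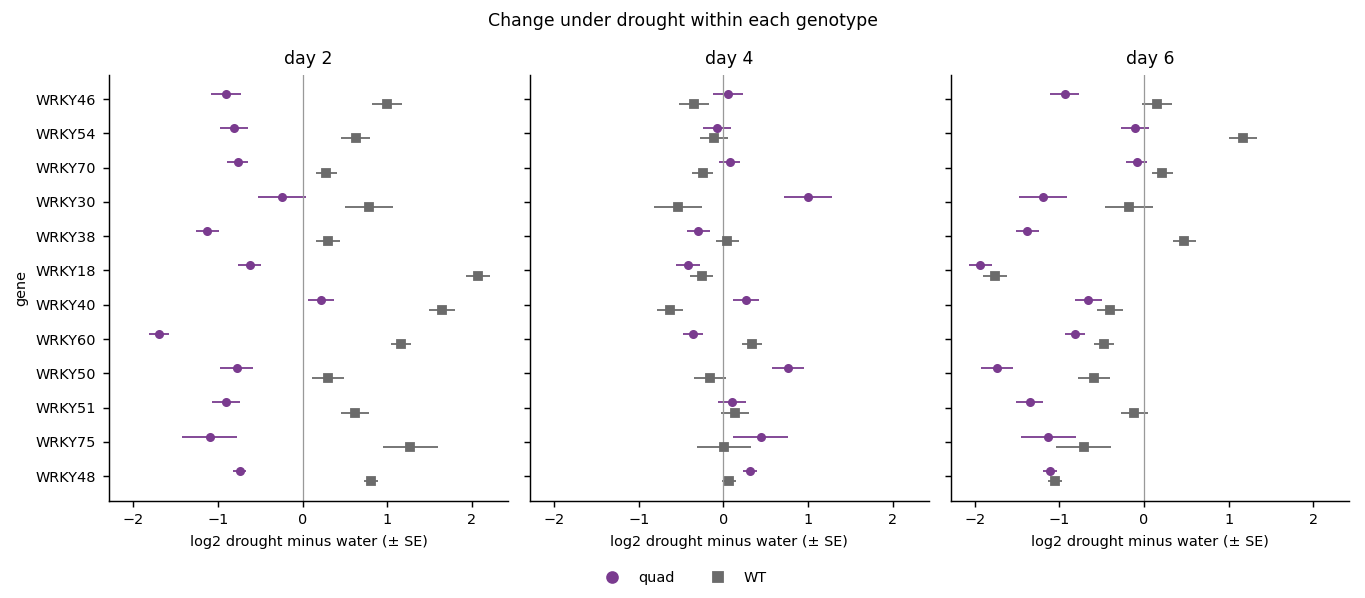
Log2 change, drought minus water, with its SE (x axis) for 12 WRKY genes (y axis) in quad (purple circles) and WT (grey squares) at days 2, 4 and 6. At day 2 the quad value lies left of the WT value for all 12, and at day 6 both genotypes lie left of 0 for WRKY18, WRKY40, WRKY48, WRKY50, WRKY60, WRKY75, WRKY30 and WRKY51.

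Several probes represented each member, so the calls could be compared across probes. The 22 calls of a member in a comparison had 3 probes each, 66 in all. All probes had the sign of the call in 22 of 22, and all were past the log2 limit in 16 of 22. At day 2 water the 3 probes of WRKY46 gave 2.31 to 2.35 and those of WRKY75 gave 1.68 to 2.91, and all 8 calls there had every probe past the limit. The weakest were WRKY48 in the difference of day 2, with probes from -1.55 to -0.75, WRKY30 in that of day 4, with 1.15 to 1.54, and WRKY60 in quad at day 2, with -1.69 to -1.29.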

How the data were processed

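The scanner files, written by Feature Extraction 10.5.1.1 per the file headers, hold the intensity of each spot and its local background in both channels, and a log10 ratio of Cy5 over Cy3. The authors also deposited normalised log2 ratios (limma, normexp, quantile), whose unit is unstated: their slope on the log10 ratio gave log2 of Cy5 over Cy3. These served as an alternative only, and 0 columns of per-sample values were unused. Intensities as scanned were corrected by normexp (maximum likelihood, offset 50, which shrinks ratios of dim spots) and normalised by loess and Aquantile in limma 3.58.1 (R 4.3.3). The 1417 control spots and flagged outliers were left out. The brightest probe stood for a locus, and a gene was kept if well above background on both arrays of a genotype and condition, leaving 22810 of 28327 loci.

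Ratios were fitted with a coefficient per condition (lmFit, eBayes, 7 residual degrees of freedom), and single channels with lmscFit (intraspot correlation 0.248) over 22641 genes. P-values were adjusted over all genes. Both fits were tested on simulated data with uncorrelated channels and no dye or slide effects. The simulation therefore cannot show how the channel fit behaves at the intraspot correlation of these data. With 2 arrays per condition the number of arrays limits the precision. The replicate number is also the dye orientation.

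Members and gene lists were chosen with earlier results of these data known. Members called in a comparison are given by array, with WRKY46, WRKY54 and WRKY70, and from each linked list up to 4 called genes with the largest change. Other members named, and BES1, BZR1 and BIN2, were chosen after their values were seen. Groups were to be assigned from protein sequence, which was not used here, so they follow general knowledge. NPR1, MKS1 and the root marker CASP5 did not pass the filter. Symbols come from a RefSeq table of TAIR10.1, and no coordinates are given because the build of the array design is not given in the sources used here. Alternatives tried were another offset, scanner-processed signals, no normalisation between arrays, the deposited ratios, all probes averaged, no filter, slide or replicate as a block, the adjusted p alone, bright backgrounds replaced, and each array left out.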

Additional observations from a re-analysis of the deposited data

Results flagged for a closer look

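The quad/WT ratio of 8 members differed between drought and water by the limma test of that difference. At day 2 the log2 difference, drought minus water, was -2.86 for WRKY60, -2.70 for WRKY18, -2.37 for WRKY75, -1.90 for WRKY46, -1.55 for WRKY48 and -1.52 for WRKY51. WRKY18 and WRKY60 also had ratios of opposite sign on every array of the conditions compared, below 0 under drought and above 0 under water, as did WRKY48. At day 4 the difference was 1.54 for WRKY30, whose call was lost on leaving out any of 11 of the 14 arrays and whose day 4 drought ratio was 2.17 with the bright backgrounds of replicate 1 replaced, and at day 6 it was -1.85 for WRKY38. Replicates were too few for a search for single outlying arrays.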

How the results depend on the processing

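The calls of 8 members at day 2 water held in all 23 alternative fits for each gene (WRKY46 between 2.32 and 2.57, WRKY75 between 2.24 and 3.31 and, the widest, WRKY30 between 1.85 and 3.80). None of the 28 values of members recomputed under the alternatives, chiefly the calls, turned its sign. The adjusted p alone, which drops the log2 limit by construction, gave 9 members at day 0, 19 and 28 at day 2 drought and water, 15 and 13 at day 4 drought and water, 8 and 17 at day 6 drought and water, and 37 for the mean. For the differences of ratios it gave 22, 4 and 8 at days 2, 4 and 6, for quad 12, 4 and 21, and for WT 13, 1 and 18. These counts pool both directions, while shares of all genes were computed by direction and are given above. Only 1 direction was computed for day 2 water, both conditions of day 4, day 6 water and the difference of day 2. The same holds for quad at days 2 and 6 and for WT at days 2 and 4. No share was computed for day 0 or for the differences of days 4 and 6, so those counts cannot be set against all genes. Scanner-processed, median-centred signals gave 1 at day 0, 1 and 13 at day 2 drought and water, 5 and 1 at day 4, 2 at day 6 water, 12, 2 and 2 for the differences, 2 and 8 in quad at days 2 and 6, and 1 in WT at day 4. An offset of 0 gave 1 at day 4 drought, 1 at day 6 water, 0 and 3 for the differences at days 4 and 6, and 5 in quad at day 6. With all probes averaged, 0 members were called in the difference of day 4 and 0 in quad at day 2. Replaced bright backgrounds gave 2 at day 4 drought. The cause of these changes was not tested. Shares of all genes were not computed under these alternatives or with an array left out. The counts of called members under them therefore cannot be set against all genes.

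Leaving out each array in turn gave 0 to 2 calls at day 4 drought (2 without replicate 1 of that condition), 0 to 1 in the difference of day 4 and 1 to 2 in WT at day 6 (2 without day 6 drought replicate 2). It gave 8 throughout at day 2 water, and 5 to 9 in the difference of day 2. A condition left with 1 array was assumed to vary like the others, and channel fits then kept the intraspot correlation of all arrays. The replicate block, which here also stands for the dye, gave 8 members at day 2 water and 6, 1 and 1 in the differences, and changed no call, nor did the slide as a block, which ended none of the calls of named members. The deposited ratios and ratios without normalisation between arrays were not run for single channels. Signals near background limit WRKY31, WRKY55 and WRKY72, and 5 other members had 1 to 3 channels not well above background, among them WRKY30 (WT at day 2 water, replicate 2), WRKY62 and ABO3.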
